A study of Mus musculus with 9 samples.

Results

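Scx, Mkx, Tnmd, Thbs4 and Comp are genes used to recognise tendon cells. Their transcripts were followed in pneumospheres, which are spheres of cells cultured from the embryonic mouse lung. These 5 of the 27179 genes in the count table were picked by name, after their levels on the 3 sampled days were already known. Their own values are therefore given as descriptions without a test, and tests were run only on other genes. The lists of those other genes were also chosen with earlier results of these data known, so counts of calls within them are a description too.

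Tendon is a dense connective tissue in which fibroblasts (tenocytes) lay down parallel fibrils of type I collagen. Scx encodes scleraxis, a basic helix-loop-helix factor that marks tendon progenitors, and Mkx encodes Mohawk, a homeodomain factor that promotes collagen production in tendon. Tnmd, Thbs4 and Comp are products of the differentiating cells: tenomodulin is a membrane glycoprotein of tenocytes, and thrombospondin 4 and cartilage oligomeric matrix protein are secreted glycoproteins that bind collagen. None of the 5 is restricted to tendon, and Comp is also a product of cartilage.

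All libraries came from C57/B6 embryos, with no genetic change or drug treatment named in the labels. Lungs of E11.5 embryos were dissociated, cells that attached to ordinary plastic within a short plating were left behind, and the rest grew as floating spheres in medium with 20 ng/ml basic FGF, 10 ng/ml EGF and heparin. Cultures were split on days 3 and 7. The groups were day 3, day 7 and day 10 of culture, with 3 poly(A) RNA libraries each, and whether these are separate cultures is not stated in the labels. The p-values below then measure the spread between these libraries, which may be technical.

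Library totals ran from 20716878 to 30466712 counts. In a chi-square of raw counts, to which highly counted genes add most, 1 library of day 3 and 1 of day 10 stood apart. Day 3 replicate 2 differed from replicates 1 and 3 by a chi-square per degree of freedom of 127 and 109, beside 8.05 between those 2, and day 10 replicate 3 differed from replicates 1 and 2 by 60.3 and 47.9, beside 28.8. The median absolute log2 difference from the day's mean, over tested genes, did not set day 3 replicate 2 apart. It was 0.0709 there, beside 0.0537 and 0.0710 in replicates 1 and 3. In day 10 replicate 3 it was 0.146, beside 0.125 and 0.113 in replicates 1 and 2. Although the preparation is described as enriched for epithelium, 12 lung epithelial markers (Etv5 left out as an FGF target) together had only 1 to 48 counts per library, and Nkx2-1, Foxa1 and Shh had none in any. Vim, a mesenchymal intermediate filament gene read as a check of cell type, stood at 661 ± 43.4, 723 ± 94.0 and 817 ± 95.7 CPM on days 3, 7 and 10. CPM are counts divided by the library's total in megareads after TMM scaling, and errors are SD with n = 3 libraries per day. In bulk RNA, fewer cells of a type and less RNA per cell cannot be told apart.

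Promoters were read for Thbs4 and Tnmd, which both had their highest mean on day 7. Those of Scx, Mkx and Comp were not used here. The 250 bases before each RefSeq start are shown, with any CANNTG (the E-box letters that basic helix-loop-helix factors such as scleraxis bind) in capitals. The sequences are from RefSeq on build GRCm38.p6 and read 5′ to 3′ on the gene's strand. Thbs4 lies on the minus strand (chr13:92794819-92795068) and Tnmd on the plus strand (chrX:133850758-133851007). GENCODE, from which the gene positions below are taken, places the Tnmd start upstream of the RefSeq one, so the last bases of the Tnmd window lie within the GENCODE gene.
Thbs4: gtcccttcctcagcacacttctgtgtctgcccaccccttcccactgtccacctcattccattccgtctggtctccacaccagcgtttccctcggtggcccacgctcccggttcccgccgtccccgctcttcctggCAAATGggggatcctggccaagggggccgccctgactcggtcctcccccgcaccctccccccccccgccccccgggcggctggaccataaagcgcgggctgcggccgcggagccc
Tnmd: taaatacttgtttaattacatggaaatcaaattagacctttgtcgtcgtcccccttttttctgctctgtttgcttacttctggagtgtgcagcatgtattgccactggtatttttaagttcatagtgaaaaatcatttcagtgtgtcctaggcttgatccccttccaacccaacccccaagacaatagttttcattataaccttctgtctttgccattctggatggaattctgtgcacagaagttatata
The Thbs4 window held 1 match, CAAATG, which begins 115 bases before the start, and the Tnmd window held 0. CANNTG reads the same way on both strands as a pattern, and 66.0% of 27025 gene promoters of this length held at least 1. The Thbs4 match is thus a common feature, and its absence from 250 bases of the Tnmd window says nothing about scleraxis.

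Scx, the progenitor factor, was abundant on day 3 and scarce by day 10. Its gene (Entrez 20289, mm10 chromosome 15, 76457452 to 76459458, 2 exons) had 145, 123 and 124 CPM in replicates 1 to 3 of day 3. It had 70.8, 122 and 75.1 CPM on day 7, and 15.5, 35.7 and 8.11 CPM on day 10. The day 10 libraries all lay below every earlier library, while the highest day 7 library, replicate 2, came close to the lowest day 3 library. The log2 change was -0.55 (SE 0.43) for day 7 against day 3, -2.18 (SE 0.46) for day 10 against day 7 and -2.73 (SE 0.47) for day 10 against day 3.

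Scx sits inside Bop1, a gene for ribosome assembly on the opposite strand (76452989 to 76477277), and shares no exon bases with its coding transcript. Because the sources used here do not state whether counting used strand, unspliced Bop1 RNA cannot be told apart from Scx RNA. Bop1 stood at 98.1 ± 5.17, 70.1 ± 12.1 and 46.8 ± 10.7 CPM on the 3 days. Scx counts per Bop1 count ran from 1.28 to 1.39 on day 3, from 1.07 to 1.45 on day 7 and from 0.225 to 0.620 on day 10, so the 2 genes kept a similar ratio until day 7 and not on day 10. The part of Bop1 reads in the Scx counts was not tested.

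Mkx, the homeodomain factor (Entrez 210719, chromosome 18, 6934518 to 7004780, 7 exons), stood lower and followed the same course. Its model overlaps that of AC148004.2, annotated as sense-overlapping on the same strand. Mkx had 12.6, 16.6 and 9.69 CPM on day 3, 8.78, 13.4 and 5.15 CPM on day 7, and 1.34, 4.28 and 1.20 CPM on day 10. Days 3 and 7 overlapped, and day 10 lay below both. The log2 change was -0.51 (SE 0.46) for day 7 against day 3, -1.99 (SE 0.50) for day 10 against day 7 and -2.51 (SE 0.51) for day 10 against day 3.

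The 2 transcription factors kept nearly the same proportion throughout. Mkx counts per Scx count lay between 0.0781 and 0.135 on day 3, between 0.0686 and 0.124 on day 7 and between 0.0865 and 0.148 on day 10, so the 3 days overlapped. Likeness of 2 genes was measured as the root mean square difference of their log2 CPM over the 9 libraries after each gene was centred on its own mean. Of 11535 candidate genes with at least 5 CPM on some day, Mkx was the nearest to Scx (0.37 log2 units), and Scx was the third nearest to Mkx. The other near neighbours of Scx were Scg3, a secretory granule protein (0.42), Tmem150c (0.45) and Kcnj2, an inwardly rectifying potassium channel (0.48). Those of Mkx were Kcnj2 (0.22), Syt9, a synaptotagmin of vesicle release (0.30), and Scg3 (0.37). Kcnj2 stood at 15.96 ± 3.39, 10.5 ± 5.49 and 3.15 ± 1.93 CPM on the 3 days.

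**Figure D1:**
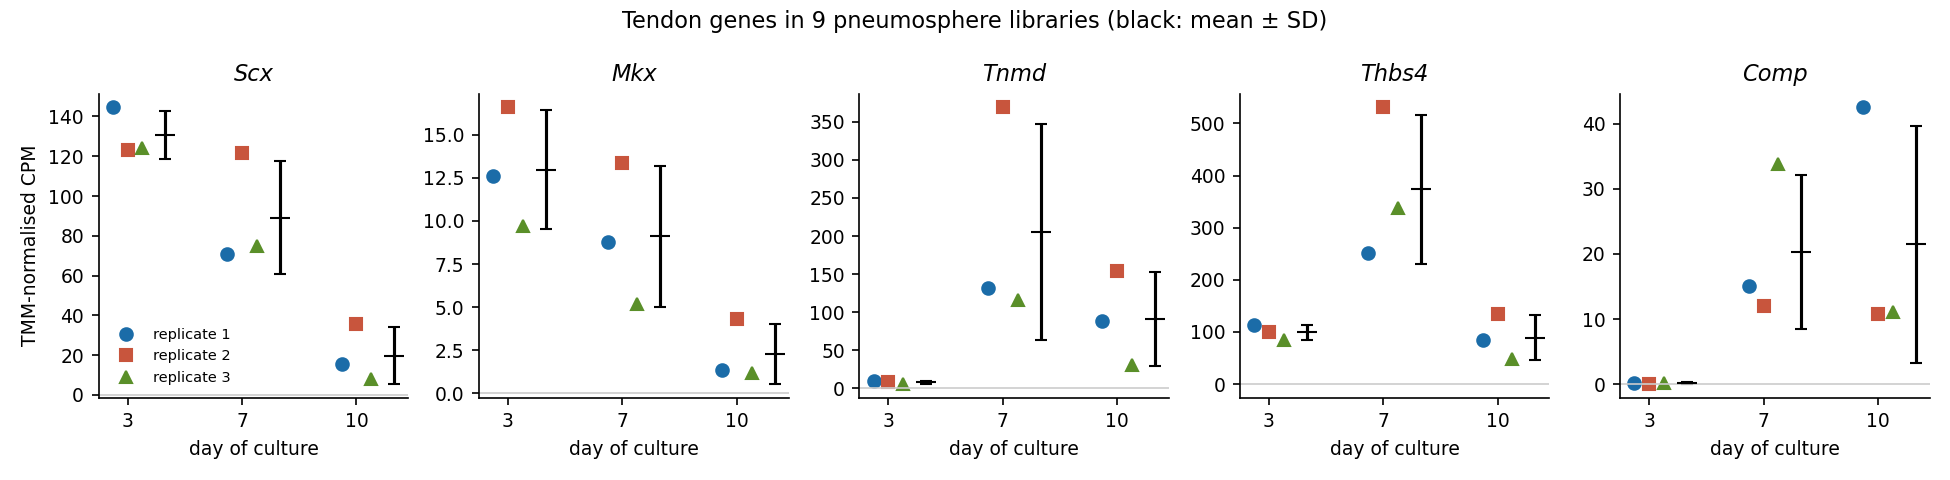
Levels of the 5 tendon genes in TMM-normalised CPM (y axis, linear, a separate scale per gene) by day of culture (x axis), with each of the 9 libraries as a point, shaped by replicate number, and the mean ± SD in black. Scx and Mkx are lowest on day 10, Tnmd and Thbs4 have their highest means on day 7 (205 and 373 CPM), and Comp is near 0 only on day 3.

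Tnmd, the tenocyte membrane protein, showed a different course from both factors. Its gene (Entrez 64103, chromosome X, 133850980 to 133865577, 7 exons) had 9.34, 8.48 and 5.82 CPM on day 3, 131, 369 and 116 CPM on day 7, and 88.1, 154 and 31.4 CPM on day 10. Every later library stood above every day 3 library, and days 7 and 10 overlapped. The log2 change was 4.70 (SE 0.71) for day 7 against day 3, -1.17 (SE 0.59) for day 10 against day 7 and 3.53 (SE 0.68) for day 10 against day 3. Without day 7 replicate 2, the day 7 value became 3.97 and that for day 10 against day 7 became -0.44. By mean CPM Tnmd ranked 10043 of 27179 genes on day 3, 896 on day 7 and 2672 on day 10.

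The genes most like Tnmd were Folr1, a folate receptor (0.50 log2 units), Cilp, a matrix protein of cartilage and tendon (0.59), Asic3, an acid-sensing ion channel (0.61), and Pdc, which encodes phosducin (0.74). Cilp stood at 4.92 ± 0.0962, 125 ± 42.9 and 53.2 ± 52.0 CPM on days 3, 7 and 10. Its day 10 mean rested on replicate 2, with 113 CPM, against 20.0 and 26.5 CPM in replicates 1 and 3, and replicate 2 was also the library with the most Tnmd.

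Thbs4, a matrix glycoprotein of tendon and muscle attachment, was already abundant on day 3 and had its highest level on day 7. Its gene (Entrez 21828, chromosome 13, 92751590 to 92794818, 22 exons) had 113, 99.2 and 85.4 CPM on day 3, 251, 531 and 338 CPM on day 7, and 84.4, 133 and 48.5 CPM on day 10. The day 7 libraries lay above all others, and those of days 3 and 10 overlapped. The log2 change was 1.91 (SE 0.36) for day 7 against day 3 and -2.07 (SE 0.37) for day 10 against day 7. For day 10 against day 3 it was -0.16 (SE 0.36), and without day 10 replicate 3 it turned to 0.14. On day 7 Thbs4 ranked 341 of 27179 genes by mean CPM.

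The 4 genes most like Thbs4 were Tbc1d9 (0.39 log2 units), Cttnbp2, which encodes a cortactin-binding protein (0.39), Ak5, an adenylate kinase (0.42), and Aqp1, a water channel (0.47). Aqp1 stood at 5.76 ± 0.760, 43.5 ± 20.6 and 6.31 ± 2.02 CPM on the 3 days, a course with its highest mean on day 7 as well.

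Comp, the cartilage oligomeric matrix protein also known as thrombospondin 5, was barely detected on day 3. Its gene (Entrez 12845, chromosome 8, 70373558 to 70382066, 19 exons) had 6, 1 and 5 counts there, or 0.243, 0.0394 and 0.220 CPM. It had 15.1, 11.97 and 33.8 CPM on day 7, and 42.5, 10.8 and 11.1 CPM on day 10. The log2 change was 6.90 (SE 0.95) for day 7 against day 3 and 6.97 (SE 0.95) for day 10 against day 3, which became 6.01 without day 10 replicate 1. Days 7 and 10 overlapped widely, with a log2 change of 0.07 (SE 0.57) that turned to -0.89 without that library.

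Against the 12 counts of day 3, summed Comp counts were 119-fold higher on day 10 (95% counting interval 67.9 to 231) and 122-fold higher on day 7 (69.7 to 237). The intervals hold for counting error of the pooled reads alone and leave out the spread between libraries of a day. That spread is part of the SE of 0.95 log2 units given above. No molecular identifiers show which reads are copies of 1 molecule. The genes most like Comp were Sema7a, a membrane-anchored semaphorin (0.43 log2 units), Timp4, a metalloproteinase inhibitor (0.72), Klk10, a kallikrein-like protease (0.73), and Dmp1, a matrix protein of bone and dentin (0.86). Sema7a stood at 0.595 ± 0.292, 44.0 ± 5.33 and 64.7 ± 48.2 CPM on days 3, 7 and 10.

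All 5 genes passed the filter on low counts. For day 7 against day 3, libraries did not overlap in Tnmd, Thbs4 and Comp (higher, as in 30.5% of 14940 tested genes) or in Scx (lower, as in 29.5%). For day 10 against day 7 they did not overlap in Scx, Mkx and Thbs4 (lower, as in 12.6%), and for day 10 against day 3 in Tnmd and Comp (higher, as in 32.5%) or Scx and Mkx (lower, as in 31.9%). Since the genes were chosen with these values known, the counts are a description. With both day 3 replicate 2 and day 10 replicate 3 left out, the log2 changes for day 10 against day 3 were -2.38 for Scx, -1.96 for Mkx, 3.996 for Tnmd, 0.13 for Thbs4 and 6.81 for Comp. Those for day 10 against day 7 were then -1.79, -1.66, -0.76, -1.78 and 0.38 in the same order of genes, and those for day 7 against day 3 were -0.59, -0.30, 4.75, 1.91 and 6.42.

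Within a library, the balance moved from the factors to the tenocyte products. Tnmd counts per Scx count ran from 0.0468 to 0.0689 on day 3, from 1.54 to 3.03 on day 7 and from 3.87 to 5.70 on day 10, with no overlap between any 2 days. Thbs4 counts per Scx count ran from 0.687 to 0.806 on day 3, from 3.54 to 4.51 on day 7 and from 3.74 to 5.98 on day 10, so that the later days overlapped although both genes were lower on day 10. Comp counts per Scx count ran from 0.000320 to 0.00177, from 0.0984 to 0.450 and from 0.303 to 2.75 on the 3 days. These ratios do not depend on how libraries were scaled to one another.

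**Figure D2:**
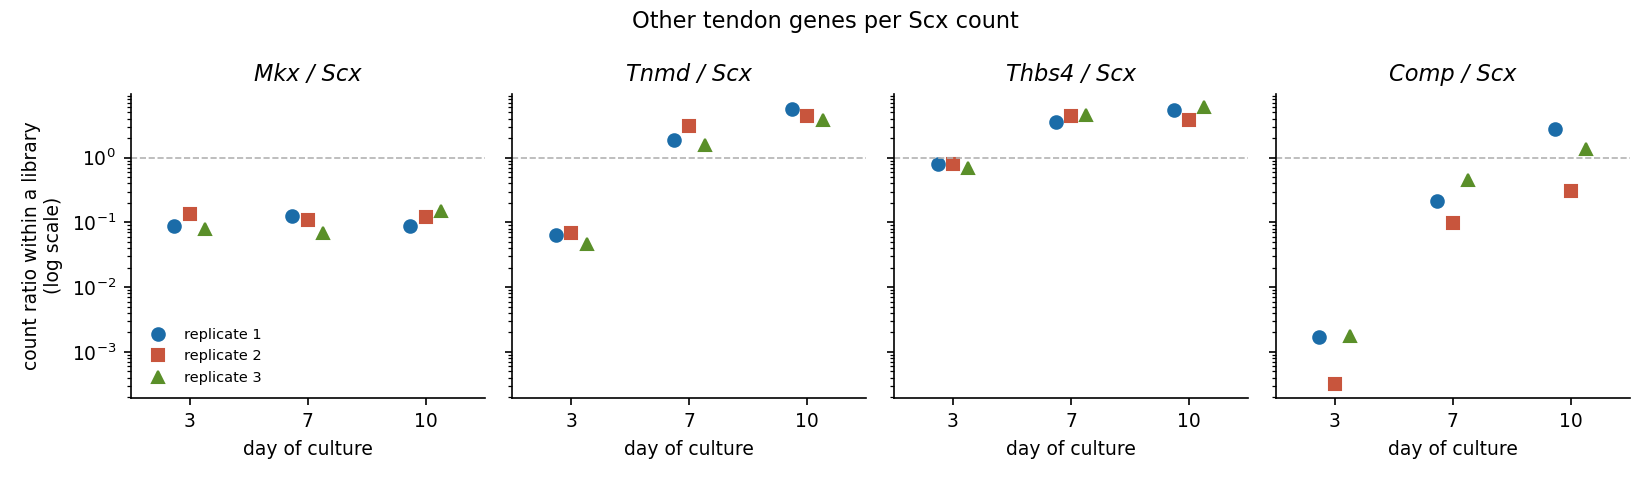
Counts of Mkx, Tnmd, Thbs4 and Comp divided by the Scx count of the same library (y axis, log scale, dashed line at equal counts) by day of culture (x axis), with 1 point per library. Mkx per Scx stays between 0.0686 and 0.148, while Tnmd per Scx lies at or above 3.87 on day 10 and at or under 0.0689 on day 3.

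The products themselves did not share a course. Thbs4 counts per Tnmd count were 11.7 to 14.7 on day 3, 1.44 to 2.92 on day 7 and 0.865 to 1.55 on day 10. Comp counts per Thbs4 count were at most 0.00258 on day 3, 0.0225 to 0.0998 on day 7 and 0.0809 to 0.504 on day 10. The nearest pair among the 3 products was Tnmd and Thbs4, at 1.54 log2 units, and Thbs4 was only number 602 in order of closeness to Tnmd. Tnmd was number 99 in order of closeness to Comp, at 1.67. Thbs4 lay closer to the factors Mkx (1.21) and Scx (1.23) than to Tnmd (1.54) or Comp (2.87).

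Levels were set against one another per kilobase of each gene's longest coding transcript. On day 3 the order was Scx (126 ± 11.7 CPM per kilobase), Thbs4 (31.1 ± 4.39), Tnmd (5.82 ± 1.36), Mkx (3.55 ± 0.949) and Comp (0.0693 ± 0.0461), and of these neighbours only Tnmd and Mkx overlapped. On day 7 it was Tnmd (152 ± 105), Thbs4 (117 ± 44.8), Scx (86.2 ± 27.3), Comp (8.40 ± 4.88) and Mkx (2.49 ± 1.13), and the first 3 could not be ordered beyond their spread. On day 10 it was Tnmd (67.5 ± 45.5), Thbs4 (27.8 ± 13.3), Scx (19.1 ± 13.8), Comp (8.88 ± 7.54) and Mkx (0.623 ± 0.477). Neighbours among the first 4 overlapped, and Comp and Mkx did not.

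Libraries of 1 day differed more in these genes than in most others. The SD of log2 CPM between the 3 libraries of day 10 was 1.07 for Scx, 0.98 for Mkx, 1.16 for Tnmd, 0.73 for Thbs4 and 1.13 for Comp, against a median of 0.19 over all tested genes. The Tnmd value exceeded that of 99.0% of tested genes, and the Thbs4 value that of 94.4%. On day 3 the Scx value was 0.13 and exceeded that of 62.3%.

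The same library was high in 4 of the genes. On days 7 and 10, replicate 2 had the most Scx, Mkx, Tnmd and Thbs4, standing above the day's mean by between 0.49 and 1.05 log2 units on day 7 and by between 0.71 and 1.13 on day 10. Comp was lowest in replicate 2 on all 3 days, at -0.92, -0.61 and -0.67 log2 units from the mean of days 3, 7 and 10. The labels do not tie libraries of equal number to the same culture. Without day 10 replicate 2, the log2 change for day 10 against day 3 was -3.49 for Scx, -3.35 for Mkx, 2.91 for Tnmd and -0.58 for Thbs4. The change for day 10 against day 7 was then -2.94 for Scx, -2.84 for Mkx and -1.79 for Tnmd.

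**Figure D3:**
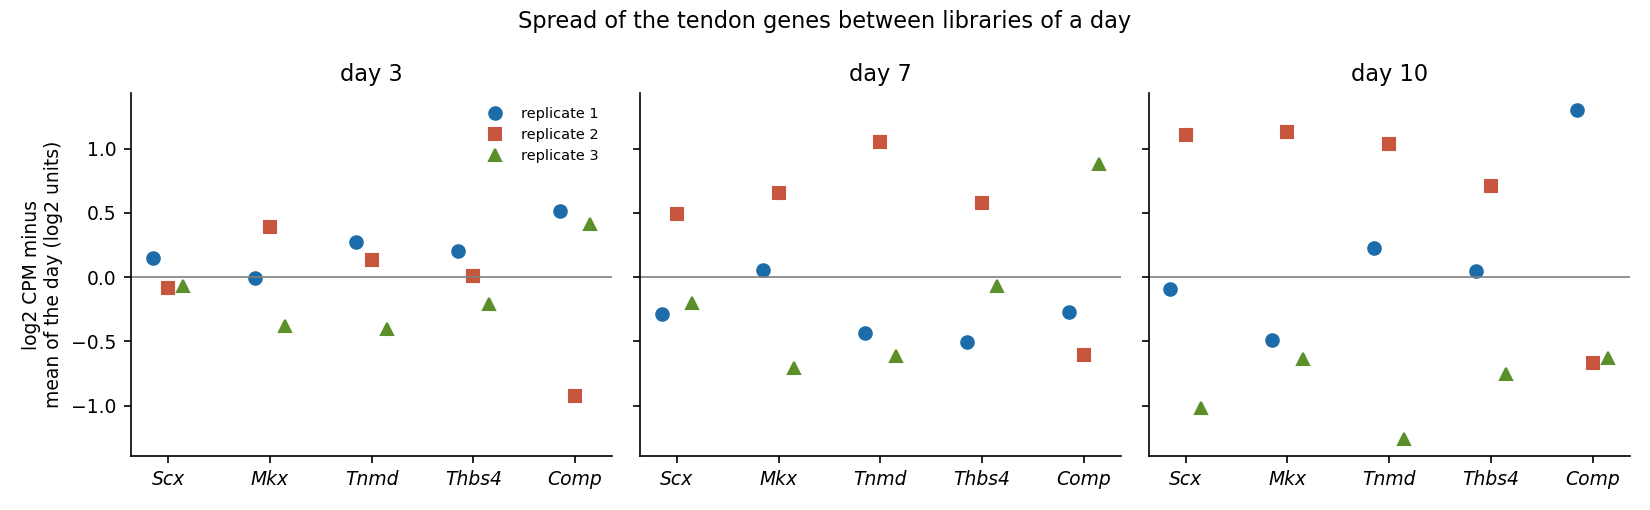
Log2 CPM of the 5 tendon genes in each library minus the mean of its day (y axis, log2 units), in 1 panel per day, with points shaped by replicate number. On days 7 and 10 replicate 2 lies highest in Scx, Mkx, Tnmd and Thbs4 and lowest in Comp.

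Other genes of tendon were tested from 4 lists of 78 genes with edgeR's quasi-likelihood test, and a gene counted as called at 0.05 after Benjamini-Hochberg adjustment. Calls in either direction made up 41.8% of all tested genes for day 7 against day 3, 8.51% for day 10 against day 7 and 56.7% for day 10 against day 3. For day 7 against day 3, 47 of the 70 tested genes rose and 6 fell, beside 22.8% and 19.0% of all tested genes. For day 10 against day 7, 13 rose and 3 fell, beside 4.41% and 4.10%. The median log2 change of the lists was 0.92 in the earlier step and 0.12 in the later one, and that of all tested genes was below 0.01 in both. The count of genes that fell on day 7 was 1 to 3 in fits without any 1 library of day 3 or day 7. It was 2 with both libraries that stood apart by chi-square left out. The comparisons share the day 7 libraries, and the lists were chosen with earlier results of these data known.

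Of 14 tested regulators other than Scx and Mkx, 5 rose and 3 fell for day 10 against day 3, beside 29.5% and 27.2% of all genes. Egr2, a zinc finger factor that acts in tendon collagen production, stood at 228 ± 83.6 CPM on day 10 and 58.8 ± 11.2 CPM on day 3 (log2 change 1.95, SE 0.30, adjusted p = 0.000435). Foxc2, a forkhead factor of paraxial mesoderm, stood at 34.6 ± 7.47 CPM on day 10 and 8.94 ± 1.34 CPM on day 3 (1.95, SE 0.16, adjusted p = 6.37e-06). Meox1, a homeobox factor of somites, stood at 617 ± 52.5 CPM on day 10 and 341 ± 17.6 CPM on day 3 (0.86, adjusted p = 2.4e-05). The other rises were in Eya1 (0.52, adjusted p = 0.0131) and Sox9 (0.73, adjusted p = 0.0119), a factor shared by tendon attachment and cartilage progenitors. The Eya1 call ended without day 3 replicate 2 (adjusted p = 0.0534), and that of Sox9 without both day 3 replicate 2 and day 10 replicate 3 (0.0857).

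Pax1, a paired box factor of the sclerotome from which axial tendons arise, was the called regulator with the greatest fall. It stood at 4.28 ± 2.69 CPM on day 10 and 25.3 ± 6.12 CPM on day 3 (log2 change -2.56, SE 0.40, adjusted p = 0.0005). Tgif1, a repressor of TGF-beta signalling, fell by 0.42 in log2 units (adjusted p = 0.00851) and Gtf2ird1 by 0.27 (adjusted p = 0.00759). Egr1, which can induce Scx, rose for day 7 against day 3 (938 ± 105 CPM on day 7 and 535 ± 12.3 CPM on day 3, log2 change 0.81, adjusted p = 0.0223), a call that ended in 4 of 18 alternative fits. For day 10 against day 3 it did not pass (adjusted p = 0.135). Six2, Eya2 and Meox2 did not pass in any comparison.

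Among the signals that induce or maintain tendon cells, 6 of 15 tested genes rose and 1 fell for day 7 against day 3. The shares of all tested genes were 22.8% and 19.0%. Tgfb3, a TGF-beta ligand needed for tendon formation, had its highest mean on day 7, as Thbs4 did, but with smaller changes. It stood at 112 ± 10.5 CPM on day 7 and 68.5 ± 2.98 CPM on day 3 (log2 change 0.71, SE 0.12, adjusted p = 0.00132). It then fell to 69.6 ± 12.2 CPM on day 10, against 112 ± 10.5 CPM on day 7 (-0.68, SE 0.12, adjusted p = 0.0122), and this later call ended when only those 2 days were fitted (0.0549).

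Tgfb1 rose to 75.8 ± 6.09 CPM on day 7, against 31.4 ± 2.87 CPM on day 3 (1.27, adjusted p = 1.82e-05), and Tgfb2, the other ligand needed for tendon, did not pass in either step (138 ± 15.3, 125 ± 15.95 and 131 ± 52.9 CPM on the 3 days). Ccn2, a matricellular growth factor, rose by 5.36 (SE 0.36, adjusted p = 7.08e-06). Fgfr1 rose by 0.52 (adjusted p = 0.000887). The growth factor genes Gdf6 (1.95, adjusted p = 0.0329) and Mstn (2.82, adjusted p = 0.00992) rose as well, Mstn to only 0.612 ± 0.216 CPM, and the Gdf6 call ended in 7 of 18 alternative fits. The fall was in Tgfbr1 (-0.18, adjusted p = 0.0479), a call that ended in 11 of 18. Etv4 and Etv5, targets of FGF signalling, stood between 142 and 196 CPM on average on every day and did not pass in any comparison. Fgf4 had no count in any library.

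Genes of the tendon matrix list, many of which are not particular to tendon, moved mostly upward. Of 30 tested, 27 rose and only Col12a1 fell for day 7 against day 3, and 28 rose and Col12a1 fell for day 10 against day 3. Of all tested genes, 22.8% rose and 19.0% fell for day 7 against day 3. For day 10 against day 3 these shares were 29.5% and 27.2%. The median log2 change of the matrix list was 1.67 and 1.83. Kera, which encodes the proteoglycan keratocan, reached 534 ± 189 CPM on day 10, against 10.5 ± 1.44 CPM on day 3 (log2 change 5.67, SE 0.30, adjusted p = 8.88e-07). Lum, which encodes lumican, reached 776 ± 203 CPM on day 10, against 27.5 ± 4.87 CPM on day 3 (4.82, SE 0.23, adjusted p = 4.39e-07). Postn, which encodes periostin, rose by 3.54 (adjusted p = 6.45e-06) and Cilp by 3.44 (adjusted p = 0.00248). Col12a1, a chain of a collagen on fibril surfaces, fell by 0.70 (adjusted p = 0.00521). Tnc, the tenascin of developing tendon, named after its values were seen, was the 1 tested matrix gene that did not pass for day 10 against day 3, with 1964 ± 1039 CPM on day 10 and 1941 ± 386 CPM on day 3 (adjusted p = 0.977).

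For day 10 against day 7, 10 matrix genes rose, Lum by the most (2.13, adjusted p = 0.00151). Of all tested genes, 4.41% rose and 4.10% fell. The 2 matrix genes that fell, named here after their values were seen, were Prg4 and Cilp2. Prg4, which encodes the lubricant lubricin of joints and tendon sheaths, fell to 0.991 ± 0.250 CPM on day 10, against 5.06 ± 0.751 CPM on day 7 (log2 change -2.35, SE 0.28, adjusted p = 0.00317). Cilp2 fell by 1.00 (adjusted p = 0.0483), a call that ended in 9 of 18 alternative fits.

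All 11 tested genes of the tendon sheath and progenitor list were called for day 10 against day 3, of which 9 rose. Of all tested genes, 56.7% were called and 29.5% rose. Prrx1, a homeobox factor of limb mesenchyme, rose by 5.32 (adjusted p = 7.5e-08), Klf4 by 3.61 (adjusted p = 7.85e-06), Thy1 by 3.53 (adjusted p = 0.00052) and Ctsk, the collagen-degrading cathepsin K, by 2.99 (adjusted p = 3.94e-07). The intermediate filament gene Nes fell by 0.43 (adjusted p = 0.00902), as did Creb5, named after its value was seen, by 1.43 (adjusted p = 0.0065). Acta2 of this list is also a smooth muscle marker and Pdgfra a marker of lung mesenchyme.

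**Figure D4:**
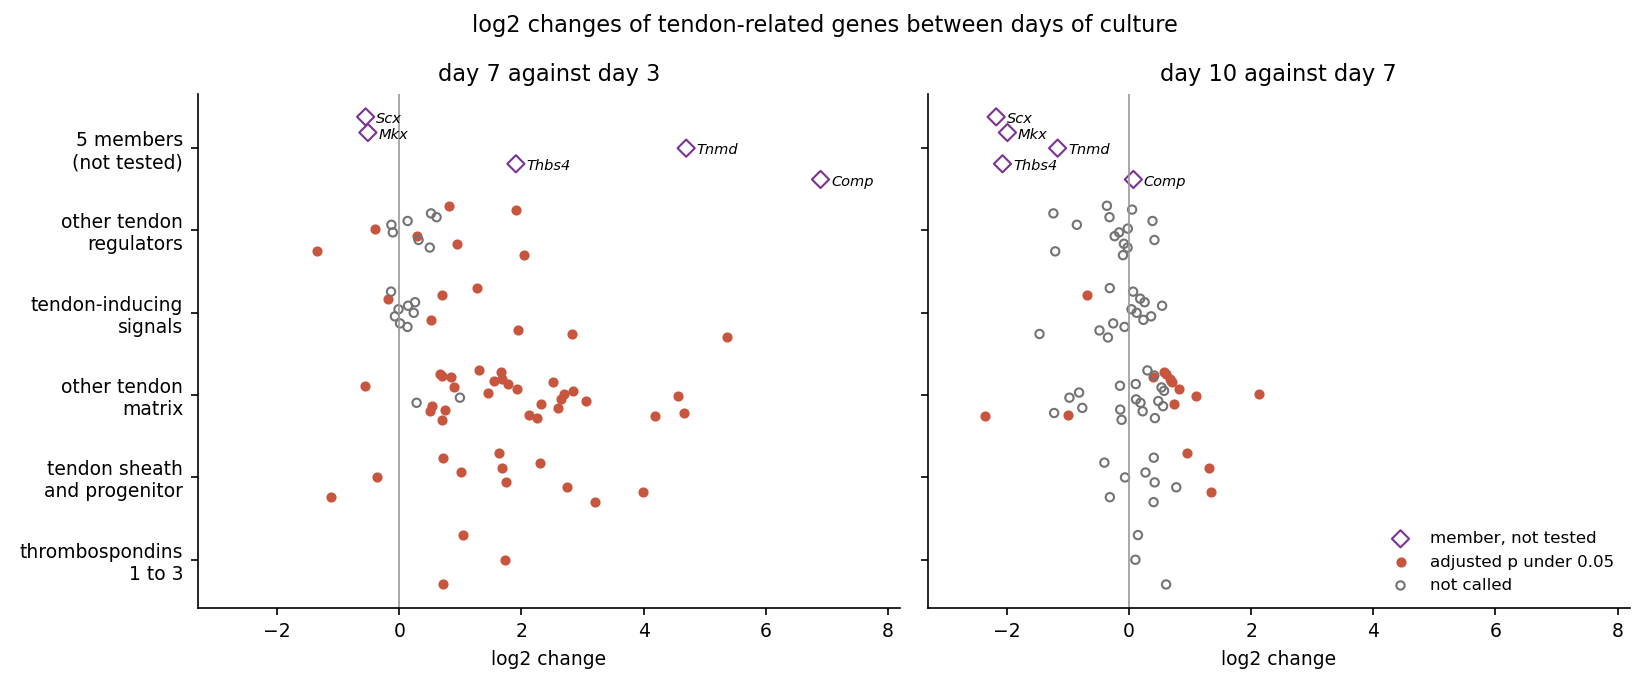
Log2 change (x axis) of the 5 tendon genes, which were not tested (diamonds), and of tested genes of 4 tendon lists and of thrombospondins 1 to 3 (circles, filled where the adjusted p was under 0.05), for day 7 against day 3 (left) and day 10 against day 7 (right). Of the matrix list 27 of 30 genes rose in the earlier step and 10 in the later one. Over all tested genes the shares that rose were 22.8% and 4.41%. In the later step Thbs4 is at -2.07 and Scx at -2.18.

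The nearest relatives of the tendon products were tested as well. Of all tested genes, 29.5% rose for day 10 against day 3 and 22.8% for day 7 against day 3. Thbs1 and Thbs2, which form trimers, and Thbs3, a pentamer like Thbs4 and Comp, all rose for day 10 against day 3, by 1.18 (SE 0.14, adjusted p = 5.74e-05), 1.84 (SE 0.23, adjusted p = 0.000134) and 1.32 (SE 0.24, adjusted p = 0.00131). They also rose for day 7 against day 3, by 1.04, 1.74 and 0.71 (adjusted p = 0.000249, 0.000357 and 0.0391), and the Thbs3 call ended in 9 of 18 alternative fits. None of the 3 passed for day 10 against day 7, where their log2 changes were 0.15, 0.10 and 0.61 (adjusted p = 0.549, 0.822 and 0.145). Cnmd, the chondromodulin gene most related to Tnmd, stayed rare, with 0.716 ± 0.731 CPM on day 10 and 0.0958 ± 0.0198 CPM on day 3 (2.88, SE 0.84, adjusted p = 0.0139), and its call ended without day 10 replicate 3 (adjusted p up to 0.0963).

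Markers of other cells that can carry these transcripts were read in the same libraries. Of 16 skeletal muscle markers, Pax3 and Myf5 had no count in any library, and the list summed to 8.87 to 17.4 CPM on day 3, 13.6 to 17.5 on day 7 and 5.36 to 17.4 on day 10. Of 17 cartilage markers, Snorc had no count, Acan averaged at most 0.0636 CPM and Col2a1 at most 0.626 CPM on any day. The cartilage list summed to 128 to 134, 191 to 340 and 174 to 427 CPM on the 3 days, mainly from Col9a2. For day 10 against day 3, 2 of its 10 tested genes rose and 3 fell, beside 29.5% and 27.2% of all tested genes. The 3 that fell were Col9a1, Matn4 and Sox5, by 4.71, 1.97 and 0.38 in log2 units (adjusted p = 0.000141, 0.000314 and 0.0489). Col9a1 averaged only 2.65 CPM on day 3 and was named after its values were seen. The 2 that rose were Hapln1, a link protein of cartilage matrix (15.8 ± 11.9 CPM on day 10 and 3.59 ± 0.590 CPM on day 3, log2 change 2.12, adjusted p = 0.00557), and Col9a2 (245 ± 137 CPM on day 10 and 84.9 ± 5.65 CPM on day 3, log2 change 1.53, adjusted p = 0.0116). Acta1, the skeletal muscle actin, named after its values were seen, had 10.2 CPM in day 7 replicate 2, the library with the most Thbs4. It had 2.37 and 1.29 CPM in replicates 1 and 3. The other tested genes of the muscle list, Actc1, Tnni1, Ttn and Mylpf, went the other way. They were lowest of day 7 in replicate 2, at 2.59, 2.59, 0.535 and 0.247 CPM. The part of muscle and cartilage cells in the levels of Thbs4 and Comp was not tested.

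Most smooth muscle and bone markers were higher on day 10 than on day 3, as Tnmd and Comp were. In that comparison 29.5% of all tested genes rose and 27.2% fell. In the smooth muscle list 6 of 9 tested genes rose and Synpo2 fell for day 10 against day 3, led by the actin-binding Tagln (4.01, adjusted p = 8.32e-06), and the list summed to 544 to 588, 983 to 1039 and 1097 to 1433 CPM on the 3 days. Myh11, the smooth muscle myosin, averaged at most 4.46 CPM on any day and was looked at after its values were seen. In the bone list 5 of 6 tested genes rose, led by Dmp1 (5.42, adjusted p = 1.99e-06) and Runx2, the osteoblast factor (3.00, adjusted p = 3.02e-05), the list summed to 50.5 to 77.0, 120 to 158 and 89.8 to 147 CPM, and Ibsp had no count. Their part in the courses of Tnmd, Thbs4 and Comp was not tested. In the lung mesenchyme list 5 of 10 genes rose and Tbx4, Tbx5 and Tcf21 fell (log2 change -2.73, -2.81 and -1.40, adjusted p = 6.73e-06, 1.01e-07 and 0.000643). The rises with at least 5 CPM were in Pdgfrb, Pdgfra, Fgf10 and Vim. Their log2 changes were 1.58, 1.12, 0.95 and 0.30 (adjusted p = 1.76e-06, 0.00345, 0.000324 and 0.0478). This list summed to 1699 to 1846, 2601 to 2775 and 3415 to 3754 CPM, mainly from Pdgfrb, Vim and Pdgfra.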

How the data were processed

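The authors deposited whole-number read counts per Entrez gene without normalisation, and per the submitters' processing notes featureCounts and build mm10 were used. What aligner, annotation, strand setting and treatment of multi-mapping reads applied was not given in the sources used here. All 9 columns matched 1 sample each. Names came from the RefSeq table of GRCm38.p6 (25275 of 27179 IDs), and gene models and transcript lengths from GENCODE M21 on the same assembly. Counts were fitted with edgeR 4.0.16 in R 4.3.3: filterByExpr kept 14940 genes, TMM factors scaled libraries, and a robust quasi-likelihood model used all 9 libraries (biological coefficient of variation 0.146). Adjusted p-values cover all tested genes. Standard errors were taken from the F statistic, as the size of the log2 change over the root of F. Log2 CPM for spread and likeness used a prior count of 2. Replicates of a day differed by 8.05 to 127 in chi-square per degree of freedom, so no 2 libraries agreed within counting noise. A count of 0 allows up to 3 counts, 0.0987 to 0.149 CPM per library. The 5 genes and all lists were chosen with earlier results of these data known. All 5 were named throughout. Of other lists, regulators, signals and relatives could be named in full, and for the rest up to 4 rises and 4 falls of largest change for day 10 against day 3 with at least 5 CPM. Likeness named the 4 nearest genes. Alternatives were DESeq2 1.42.0 (its test, and its size factors in edgeR), unscaled library sizes, upper-quartile factors, no filter on low counts, 1 CPM in 3 libraries, each library left out, 2 libraries left out, a replicate block, and only the 2 days compared. The fitting code was tested on simulated data.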

Additional observations from a re-analysis of the deposited data

How the results depend on the processing

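In the 18 alternative fits, 264 of 270 log2 changes of the 5 genes kept their sign and moved by less than the spread between libraries. The others were small changes that turned sign. Comp for day 10 against day 7 became -0.079 with the replicate block, -0.10 and -0.20 without day 7 replicate 1 or 2 and -0.89 without day 10 replicate 1 (range 0.65 to -0.89 over single libraries left out). Thbs4 for day 10 against day 3 became 0.14 without day 10 replicate 3 and 0.13 without both that library and day 3 replicate 2 (range -0.58 to 0.14 over single libraries left out). Why they turned was not tested. In the 4 tendon lists, genes that fell for day 7 against day 3 were 1 to 6 with a library left out and 2 with both day 3 replicate 2 and day 10 replicate 3 left out. For day 10 against day 7, 6 fell with DESeq2, 6 with the replicate block, 1 with only the 2 days compared and 2 to 6 with a library left out, and 6 rose with only the 2 days compared. Over all genes, the calls for day 10 against day 7 were 1271, but 2115 with DESeq2, 290 with only the 2 days compared, 304, 667 and 829 without day 7 replicate 2, 3 or 1, and 780 and 807 without day 3 replicate 1 or 2. Whether libraries of equal number come from 1 culture is not stated in the labels and cannot be decided here. Their deviations correlated at -0.00331 to 0.217 between days 7 and 3 and at -0.0694 to 0.433 between days 10 and 7. Between days 10 and 3 they correlated at 0.0840 to 0.118, and each day 10 library correlated best with its own number. In the other comparisons not every library did. A level of 3 counts, the limit that a count of 0 allows, is 0.0987 CPM in the deepest library and 0.149 CPM in the shallowest.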
